A study of Saccharomyces cerevisiae with 4 samples.

Results

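The genes HSP31, GLO1, GLO2, GLO4 and GRE3 of budding yeast encode enzymes that remove methylglyoxal. They were taken by gene symbol from the 5619 array probes annotated to 1 gene, and each of the 5 had 1 probe, so 5 of 5477 measured genes are described. All 5 had a value on all 4 arrays and were among the 5403 genes tested, and no filter on low values was applied. RNA of cells given 10 µM celastrol, a plant triterpenoid, for 1 h was set against RNA of cells given its solvent DMSO on 2 arrays. On the other two arrays, cells kept at 39 °C for 30 min were compared with cells kept at 30 °C for the same time. The sources used here name neither the strain, its genotype nor the medium. Each value is a log2 ratio of treated over its own control on 1 array, so 1 stands for a doubling and 0 for no difference.

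Methylglyoxal is a reactive aldehyde that forms as a by-product when triose phosphates of glycolysis lose their phosphate, and it modifies proteins, lipids and DNA. In the glyoxalase route it first adds to glutathione. Glyoxalase I (GLO1) turns that adduct into S-lactoylglutathione, and glyoxalase II, cytosolic (GLO2) or mitochondrial (GLO4), splits it into D-lactate and free glutathione. HSP31, a protein of the DJ-1 family that also acts as a chaperone, converts methylglyoxal to lactate without glutathione. GRE3 is an aldose reductase that reduces methylglyoxal and other aldehydes and sugars with NADPH.

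Replicate arrays correlated across the 5403 genes with r = 0.85 for celastrol and r = 0.66 for heat shock. The SD over genes was 0.588 and 0.789 on the celastrol arrays and 0.913 and 0.590 on the heat shock arrays. The treated sample was in the red dye on every array, so an effect of the dye on a probe adds to both treatments, and its size was not tested. Centring each array on its median would raise celastrol values by 0.117, heat shock values by 0.00562 and their difference by 0.111. P-values come from limma, fitted over all 4 arrays with 1 mean per treatment and adjusted by Benjamini-Hochberg over all 5403 genes. A gene is called at an adjusted p under 0.05. In what follows, a gene that rose or fell is one called above or below 0, so an uncalled gene can still have ratios above 0. The design text speaks of independent experiments but not of separate cultures, so p-values measure the spread between these arrays.

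With 1 array left out, its treatment is a single array assumed to vary like the other treatment, whose 2 arrays alone give the spread. Without celastrol replicate 1 or 2, limma called 0 of the 5403 genes in any comparison (926 and 411 at an unadjusted p under 0.05 after celastrol, 1154 in both cases after heat shock). Every call named here was therefore lost in those settings whatever the gene, which says nothing of the single gene. Without heat shock replicate 2 the spread came from the celastrol arrays, and 1522 genes were called after celastrol and 1582 after heat shock, against 353 and 490 with all arrays.

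All 5 genes lay above 0 on all 4 arrays, as did 17.8% of the 5403 genes tested. After celastrol 2 of the 5 rose, HSP31 and GLO4, where 3.85% of all genes rose. After heat shock 3 of the 5 rose, HSP31, GLO4 and GRE3, where 4.28% of all genes rose, and 0 of the 5 fell after either treatment, where 2.68% of all genes fell after celastrol and 4.79% after heat shock. The median log2 ratio of the 5 was 1.20 after celastrol and 1.70 after heat shock, against medians of −0.11 and 0.00478 over all genes tested. These are descriptions of a short list, with no test of the list. The 5 genes, and the other genes set beside them below, were chosen with earlier results of these data known. Setting their counts beside the shares over all genes is therefore no test either.

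**Figure D1:**
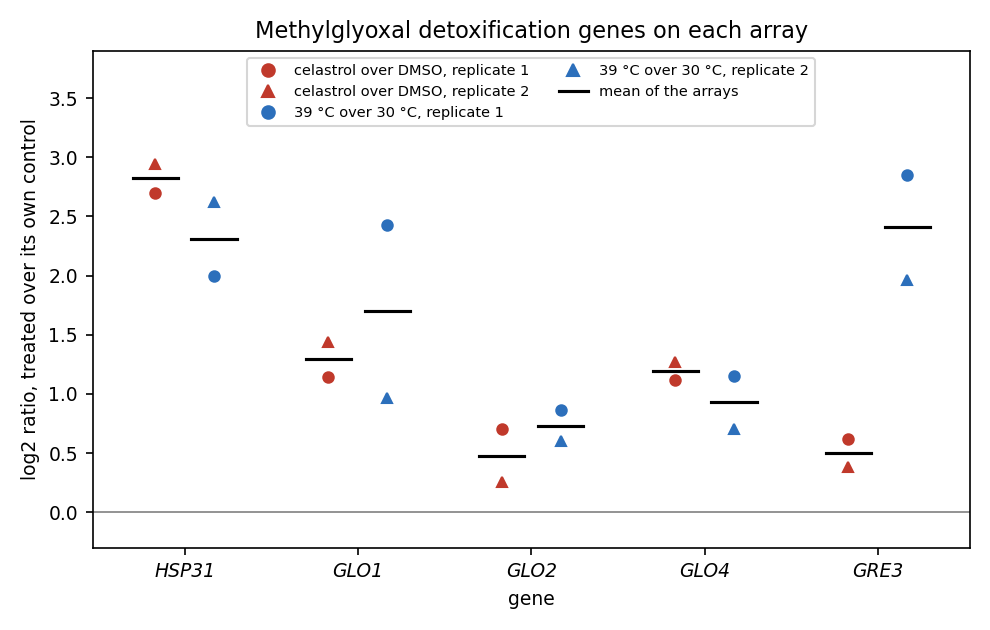
Log2 ratio of treated over control for each of the 5 genes, with circles for replicate 1, triangles for replicate 2 and a black bar for the mean of the 2 arrays of a treatment. Celastrol (red) stands left of heat shock (blue). HSP31 was high on all 4 arrays, GRE3 was high on both heat shock arrays and near 0.5 after celastrol, and the heat shock arrays lay far apart for GLO1.

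HSP31 (YDR533C), the methylglyoxalase that needs no glutathione, was high under both treatments. Its log2 ratios were 2.70 and 2.94 on the celastrol arrays and 1.997 and 2.63 on the heat shock arrays. Both celastrol values lay above both heat shock values. HSP31 ranked 23 and 24 from the top among 5403 genes on the celastrol arrays, and 83 and 17 on the heat shock arrays. It rose 7.07-fold after celastrol (2.82 ± 0.17, SD, n = 2 arrays) with a limma adjusted p of 0.00798. After heat shock it rose 4.96-fold (2.31 ± 0.44, SD, n = 2) with a limma adjusted p of 0.0133.

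The difference for HSP31, celastrol minus heat shock, was 0.51 ± 0.30 on the log2 scale (SE), with a 95% interval of −0.25 to 1.27, and was not called (limma adjusted p = 0.522). That interval holds both an equal rise and one 2.41-fold larger after celastrol.

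The 3 paralogs of HSP31, whose roles are less well defined, were not called after celastrol, and 2 of them rose after heat shock. Over all genes tested, 3.85% rose after celastrol and 4.28% after heat shock. HSP32, HSP33 and SNO4 are near-identical to each other, so their probes can share signal, and values of single copies are uncertain. SNO4 had ratios of 0.50 and 0.32 after celastrol and 1.20 and 1.23 after heat shock, and rose after heat shock (1.22 ± 0.02, SD, n = 2; limma adjusted p = 0.0185). HSP32 stood at −0.10 and −0.04 after celastrol and at 0.63 and 0.98 after heat shock. Its rise after heat shock (0.80 ± 0.24, SD, n = 2) was called at a limma adjusted p of 0.0496 and lost under 12 of 16 other settings, among them without heat shock replicate 2 (0.63, adjusted p = 0.0712). HSP33 was close to 0 on all arrays, at −0.21 and −0.25 after celastrol and 0.12 and 0.01 after heat shock. None of the 3 was called for the difference between treatments, where 1.11% of all genes were.

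GLO1 (YML004C), for the enzyme that commits methylglyoxal to the glutathione route, had ratios of 1.15 and 1.44 after celastrol and 2.43 and 0.96 after heat shock. The heat shock arrays lay on either side of both celastrol arrays, so the groups overlapped. In ranks among 5403 genes, GLO1 was at 166 and 137 on the celastrol arrays and at 46 and 211 on the heat shock arrays. Its mean was 1.29 ± 0.21 after celastrol, 2.45-fold, and 1.70 ± 1.04 after heat shock, 3.24-fold (all SD, n = 2).

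Neither mean of GLO1 was called, at limma adjusted p-values of 0.0914 after celastrol and 0.0531 after heat shock, although each was above 0 on 2 of 2 arrays. The 95% intervals were 0.37 to 2.22 after celastrol and 0.77 to 2.62 after heat shock. With celastrol fitted alone, so that the spread came from the celastrol arrays only, the celastrol mean was called (limma adjusted p = 0.00167). That setting called 1522 genes after celastrol, against 353 with all arrays, so the call is not particular to GLO1. Under other settings, GLO1 stayed uncalled in 9 of 16 after celastrol and in 11 of 16 after heat shock. Quantile normalization called both means (limma adjusted p = 0.0115 and 0.00696), and it called 1135 and 989 of all genes. Centring each array on its median called only the heat shock mean (limma adjusted p = 0.0472). Taken as single arrays, heat shock replicate 1 stood at 2.43 and replicate 2 at 0.96, and a single array gives no spread of its own. The difference of −0.40 ± 0.51 (SE) between treatments was not called (limma adjusted p = 0.767). It was 0.33 without heat shock replicate 1 (adjusted p = 0.67) and −1.14 without heat shock replicate 2 (adjusted p = 0.0473), so its direction depends on which heat shock array is used.

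GLO2 and GLO4, the pair of glyoxalase II genes, differed in what was called. GLO4 (YOR040W), for the mitochondrial enzyme, had ratios of 1.12 and 1.27 after celastrol and 1.15 and 0.71 after heat shock. The celastrol arrays were close together and the groups overlapped. GLO4 rose 2.29-fold after celastrol (1.20 ± 0.11, SD, n = 2; limma adjusted p = 0.0334) and 1.90-fold after heat shock (0.93 ± 0.32, SD, n = 2; limma adjusted p = 0.0441).

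Under other settings, the call of GLO4 was kept in 12 of 16 after celastrol and in 9 of 16 after heat shock. Without heat shock replicate 1 its heat shock ratio was 0.71 and was not called. With the number in the titles as a replicate block, both calls were lost (limma adjusted p = 0.106 after celastrol and 0.115 after heat shock). A test against a 1.5-fold change also lost both (limma adjusted p = 0.242 and 0.551).

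GLO2 (YDR272W), for the cytosolic enzyme, had ratios of 0.70 and 0.26 after celastrol and 0.86 and 0.60 after heat shock. It was the lowest of the 5 genes on both heat shock arrays and on celastrol replicate 2. Its mean was 0.48 ± 0.32 after celastrol and 0.73 ± 0.19 after heat shock (all SD, n = 2), or 1.39-fold and 1.66-fold. Neither was called, with limma adjusted p-values of 0.161 and 0.0754. The 95% intervals were 0.00302 to 0.96 and 0.26 to 1.21. Under other settings, GLO2 stayed uncalled after celastrol in 16 of 16 and after heat shock in 15 of 16. The exception was heat shock replicate 1 (0.86) as a single array with the spread of the celastrol arrays. Heat shock replicate 2 (0.60), taken in the same way, was not called. Celastrol minus heat shock was −0.25 ± 0.26 for GLO2 (95% interval −0.93 to 0.42) and 0.27 ± 0.26 for GLO4 (95% interval −0.38 to 0.92; all SE), and neither was called (limma adjusted p = 0.711 and 0.686). Whether GLO2 and GLO4 responded differently from each other was not tested.

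GRE3 (YHR104W), the aldose reductase gene, had the largest difference between the 2 treatments among the 5. They were 0.62 and 0.38 on the celastrol arrays and 2.85 and 1.96 on the heat shock arrays, with no overlap. GRE3 ranked 416 and 904 among 5403 genes on the celastrol arrays, and 24 and 46 on the heat shock arrays. It rose 5.31-fold after heat shock (2.41 ± 0.63, SD, n = 2; limma adjusted p = 0.0133). After celastrol its mean was 0.50 ± 0.17 (SD, n = 2), 1.42-fold, and was not called (95% interval −0.14 to 1.14; limma adjusted p = 0.244).

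The difference for GRE3, celastrol minus heat shock, was −1.91 ± 0.35 on the log2 scale (SE), so that the ratio after celastrol was 0.267 of that after heat shock. Its 95% interval of −2.81 to −1.001 left out 0, but its adjusted p over all genes was 0.0976 by limma and it was not called. By limma 0 of the 5 genes were called for the difference, where 1.11% of all genes were. Before adjustment, 741 genes had a limma p under 0.05, and of the 5 only GRE3 did, at 0.00279. The arrays of the 2 treatments did not overlap for HSP31 and GRE3, in opposite directions, and 47% of all genes tested had arrays that did not overlap. With the spread taken from the celastrol arrays, the GRE3 difference was called without heat shock replicate 1 or 2, at −1.46 (adjusted p = 0.0385) and −2.35 (adjusted p = 0.00319). Those settings called 175 and 575 genes for the difference, against 60 with all arrays.

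**Figure D2:**
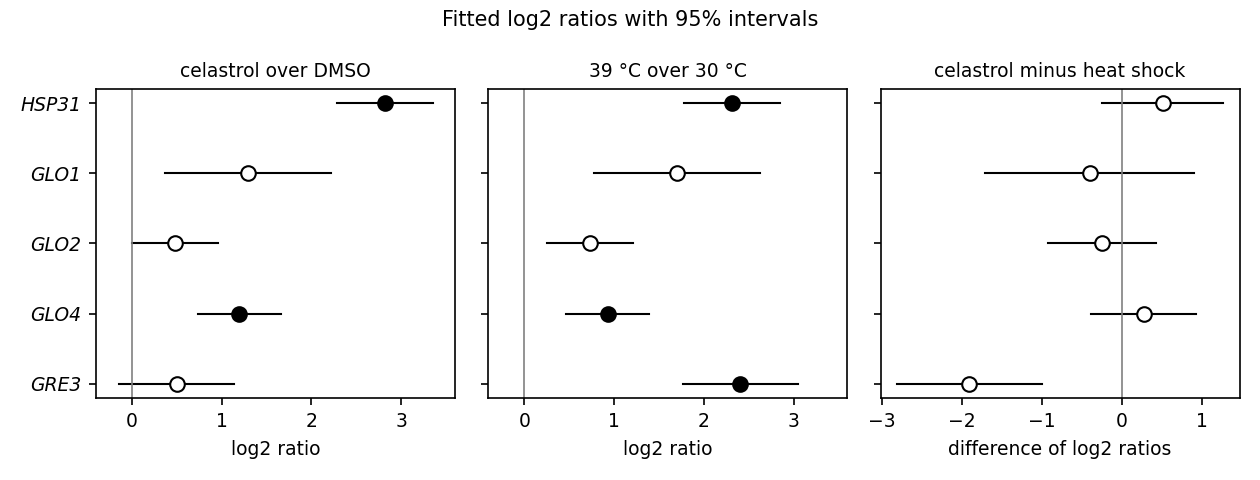
Fitted log2 ratio of each of the 5 genes (circles) with its 95% interval (lines) after celastrol, after heat shock and for celastrol minus heat shock, from limma. Filled circles mark an adjusted p under 0.05. HSP31 and GLO4 are filled in both treatments, GRE3 after heat shock only among the comparisons drawn, and no circle is filled for the difference.

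The order of the 5 genes was not the same on all arrays. After celastrol HSP31 came first on both arrays, followed by GLO1 and GLO4, and then by GLO2 and GRE3 in either order. HSP31 did not overlap with GLO1, and GLO4 did not overlap with GLO2 or GRE3, while GLO1 overlapped with GLO4 and GLO2 with GRE3. After heat shock GLO4 and then GLO2 came last on both arrays. The first places were held by GRE3, GLO1 and HSP31 on replicate 1 and by HSP31, GRE3 and GLO1 on replicate 2, and each gene overlapped with its neighbour in the order of means. These are ratios of different probes, and levels of the genes cannot be ranked from them.

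**Figure D3:**
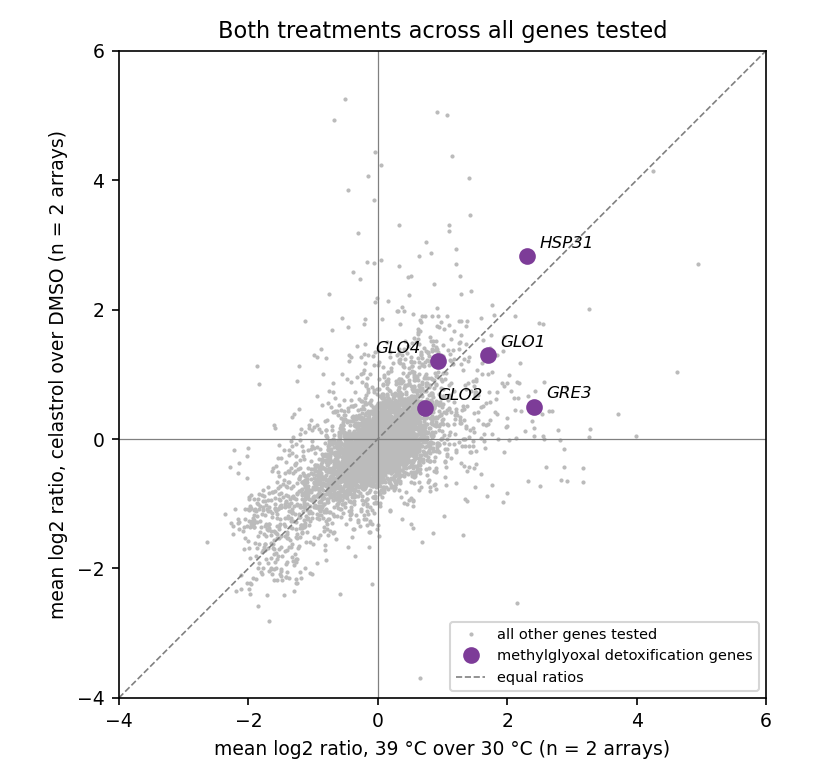
Mean log2 ratio after celastrol (vertical axis) against mean log2 ratio after heat shock (horizontal axis) for the 5403 genes tested (grey) and the 5 methylglyoxal detoxification genes (purple), n = 2 arrays per mean. The dashed line marks equal ratios. HSP31 and GLO4 lie above the line and GLO1, GLO2 and GRE3 below it, with GRE3 farthest from it.

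Of 6 other reductases that act on methylglyoxal or similar carbonyls, 3 rose after celastrol, 1 rose after heat shock and 0 fell. Of all genes tested, 3.85% rose and 2.68% fell after celastrol, and 4.28% rose and 4.79% fell after heat shock. GRE2, for a methylglyoxal reductase, had ratios of 5.68 and 4.34 after celastrol and 1.14 and 0.996 after heat shock. The difference of 3.94 for GRE2 was called (limma adjusted p = 0.0391), a call kept under 10 other settings and lost under 5. YDL124W, for an alpha-keto amide reductase, had 2.99 and 3.08 after celastrol against 0.37 and 1.12 after heat shock.

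YPR1, for an aldo-keto reductase, had 1.18 and 1.38 after celastrol against 0.07 and −0.21 after heat shock. GCY1, for a glycerol dehydrogenase of the aldo-keto reductase family, was higher on both heat shock arrays, as GRE3 was, with 0.07 and −0.08 after celastrol and 3.30 and 1.86 after heat shock. The limma adjusted p-values after celastrol were 0.00658 for GRE2, 0.00798 for YDL124W and 0.0239 for YPR1, and GCY1 had 0.021 after heat shock. For GCY1 the difference between treatments, −2.58, was not called (limma adjusted p = 0.107). ARA1, for a D-arabinose dehydrogenase, had means of 0.60 ± 0.47 after celastrol and 0.45 ± 0.10 after heat shock, and YJR096W, for a sugar reductase, had −0.38 ± 0.14 and −0.36 ± 0.31 (all SD, n = 2), and neither was called.

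**Figure D4:**
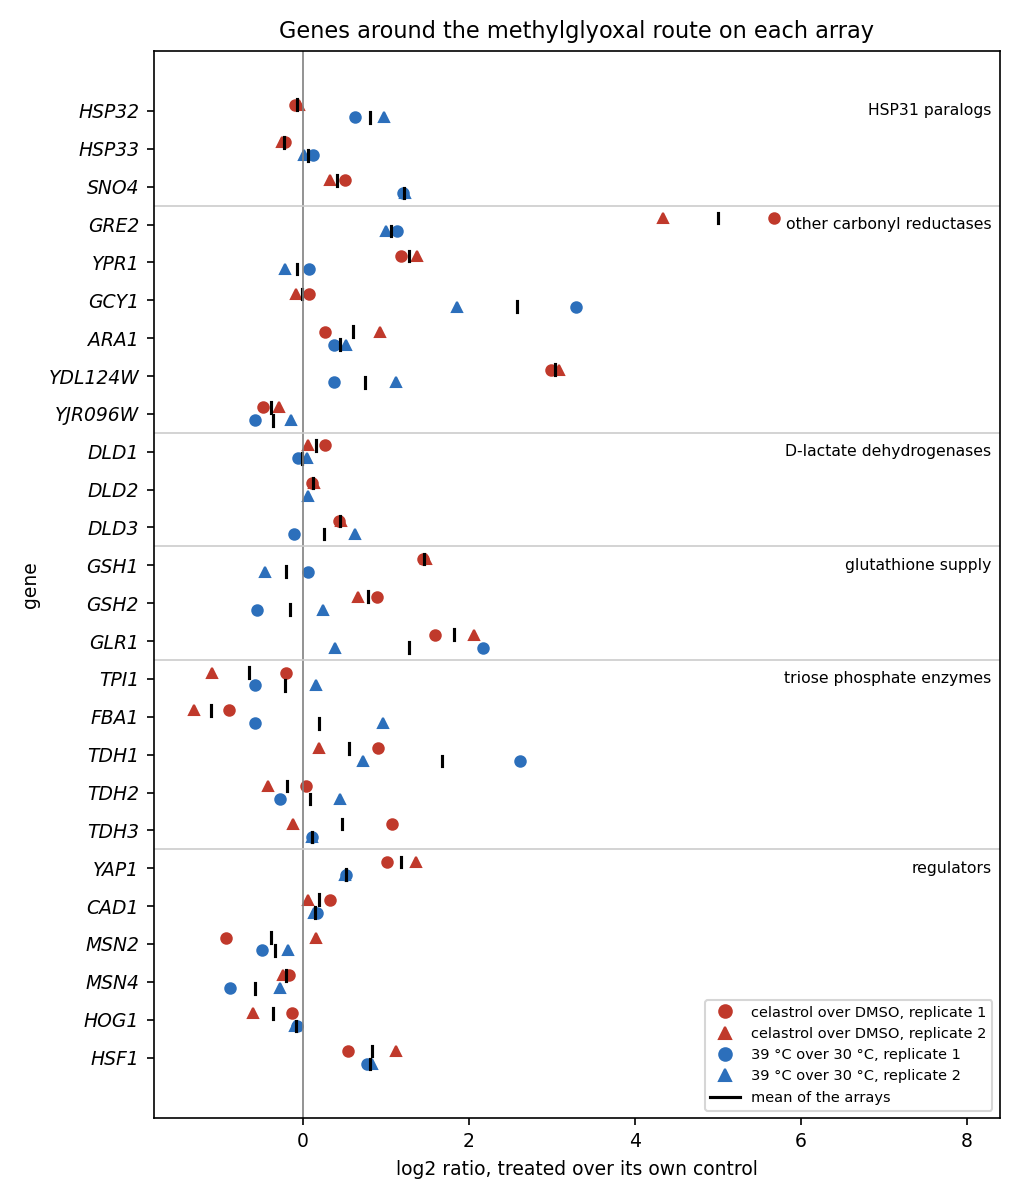
Log2 ratios of treated over control for 26 genes around the methylglyoxal route, grouped by list, with celastrol (red) above heat shock (blue) in each row, circles for replicate 1, triangles for replicate 2 and black bars for means of 2 arrays. GRE2 and YDL124W lie farthest to the right after celastrol, and GCY1 after heat shock. DLD2 has no value on heat shock replicate 1.

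Glutathione, which GLO1 needs and GLO2 and GLO4 release, is made by the products of GSH1 and GSH2 and kept reduced by that of GLR1. Of these 3 genes 1 rose after celastrol, 0 rose after heat shock and 0 fell. The shares over all genes tested were 3.85% higher and 2.68% lower after celastrol, and 4.28% higher and 4.79% lower after heat shock. GSH1, for the first step of synthesis, had ratios of 1.44 and 1.48 after celastrol and 0.06 and −0.45 after heat shock, and rose after celastrol (1.46 ± 0.03, SD, n = 2; limma adjusted p = 0.0233). GSH2 had 0.89 and 0.67 after celastrol and −0.55 and 0.25 after heat shock and was not called. GLR1, for glutathione reductase, had 1.59 and 2.06 after celastrol and 2.17 and 0.39 after heat shock and was not called (limma adjusted p = 0.0691 and 0.128). As for GLO1, the heat shock arrays lay on either side of the celastrol arrays, with replicate 1 the higher. The differences between treatments were not called for any of the 3, where 1.11% of all genes were called.

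D-lactate, the product of the glyoxalase route, is oxidised by D-lactate dehydrogenases. DLD1, for the mitochondrial enzyme, stayed between −0.06 and 0.26 on the 4 arrays, and DLD3, for a cytosolic enzyme, had means of 0.45 ± 0.02 after celastrol and 0.26 ± 0.52 after heat shock (all SD, n = 2). Neither was called, where 3.85% of all genes rose and 2.68% fell after celastrol, and 4.28% rose and 4.79% fell after heat shock. DLD2 was left out of the fit, since its value on heat shock replicate 1 was an exact 0 and was taken as not measured. Its other values were 0.11 and 0.14 after celastrol and 0.07 on heat shock replicate 2.

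Of 5 genes for enzymes around the triose phosphates, from which methylglyoxal forms, 0 rose and 0 fell after either treatment by limma. Over all genes tested, 3.85% rose and 2.68% fell after celastrol, and 4.28% rose and 4.79% fell after heat shock. For so few genes, a lack of calls is near those shares. TPI1, for triose phosphate isomerase, had −0.20 and −1.09 after celastrol and −0.58 and 0.16 after heat shock. FBA1, for aldolase, had −0.89 and −1.32 after celastrol and −0.58 and 0.97 after heat shock. TDH1, for one of the glyceraldehyde phosphate dehydrogenases, had 0.91 and 0.20 after celastrol and 2.62 and 0.72 after heat shock (limma adjusted p = 0.481 and 0.0934). TDH2 and TDH3, whose probes can share signal with each other and with TDH1, had means of −0.20 and 0.47 after celastrol and 0.09 and 0.11 after heat shock.

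Among regulator genes known for stress control in yeast, 1 of 6 rose after celastrol and 0 after heat shock. Over all genes tested, 3.85% rose after celastrol and 4.28% after heat shock. YAP1, for the oxidative stress factor under which HSP31 is known to stand, had ratios of 1.01 and 1.36 after celastrol and 0.52 and 0.51 after heat shock, and rose after celastrol (1.19 ± 0.25, SD, n = 2; limma adjusted p = 0.028). HSF1, for the heat shock factor, had 0.54 and 1.12 after celastrol and 0.78 and 0.83 after heat shock, and was not called (limma adjusted p = 0.0684 and 0.0702). MSN2 and MSN4, for the general stress factors, had means of −0.39 and −0.20 after celastrol and −0.34 and −0.58 after heat shock. CAD1, for a factor related to Yap1, and HOG1, for the osmotic stress kinase, had means of 0.20 and −0.37 after celastrol and 0.15 and −0.08 after heat shock. These are transcript ratios and say nothing of the activity of the proteins.

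The genes with the most similar ratios were found by the Euclidean distance over the 4 arrays, 3 for each of the 5 genes, as a description with no test. Nearest to GLO4 were RPN9 (distance 0.165), for a subunit of the proteasome lid, IRC20 (0.25), for a ubiquitin ligase and helicase, and RPN3 (0.269), also for a subunit of the lid. Nearest to GLO1 were YBR062C (0.42), for a ubiquitin ligase, SCL1 (0.428), for a subunit of the proteasome core, and RPN12 (0.517), for a subunit of its regulatory particle. SCL1 shared the spread of GLO1 between heat shock arrays, at 2.78 and 0.73.

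Nearest to GRE3 were ADE2 (0.438), for a purine synthesis enzyme, NTH1 (0.44), for neutral trehalase, and CPA1 (0.441), for a subunit of carbamoyl phosphate synthetase. NTH1 had 0.40 and 0.46 after celastrol and 2.85 and 1.59 after heat shock. Nearest to GLO2 were GPT2 (0.293), for a glycerol phosphate acyltransferase, RDS3 (0.311), for a splicing factor, and YPS1 (0.318), for a cell wall protease. HSP31 had no gene as near: TMC1 (1.30), for a zinc finger protein linked to ubiquitin, APE1 (1.51), for a vacuolar aminopeptidase, and HSP82 (1.51), for an Hsp90, were the closest.

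Among the 5 genes themselves the smallest distance was that of GLO2 and GLO4 (1.14), and the largest that of HSP31 and GLO2 (4.07). Of the 5403 genes tested, 1350 were nearer to GLO2 than GLO4 was, 61 were nearer to GLO1 than GLO4 was, and 59 were nearer to HSP31 than GLO1 was. The distance depends on the size of the ratios as well as on their pattern. Distances and counts therefore cannot be compared between genes with high and low ratios, such as HSP31 and GLO2.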

How the data were processed

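The authors deposited 1 log2 ratio per probe and array, with duplicate spots averaged and set relative to the chip's median signal, per the labels of the series. No source used here names the array software, the background correction or a spot filter. Base 2 was read from heat shock replicate 1, where 345 pairs of values differ by the log2 of a small whole-number ratio, against 0 for natural and 2 for decimal logs (tolerance 2e-09), and assumed for the other arrays.

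Of 6415 probes, 5619 had 1 annotated gene, all matched to the RefSeq table of the R64 assembly, 76 had several and 720 had none. Probes of a gene were averaged and exact zeros were taken as missing. The 5403 genes with values on all 4 arrays entered a linear model (limma 3.58.1, R 4.3.3; 2 residual and 3.12 prior degrees of freedom), 1 mean per treatment, with celastrol minus heat shock as a contrast. The arrays' number limits the precision. The script was tested on simulated data. Other normalizations, filters, spreads and sets of arrays were tried (closing section), and promoter sequences were not used here. The members and lists were chosen with earlier results of these data known. Named genes are the 5 members, all 26 list genes and the 3 nearest genes of each member.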

Additional observations from a re-analysis of the deposited data

Results flagged for a closer look

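GRE2, a methylglyoxal reductase gene outside the 5 genes described, differed between treatments by a test of the difference itself. Its log2 ratio was 3.94 higher after celastrol than after heat shock (limma adjusted p = 0.0391), with ratios of 5.68 and 4.34 after celastrol and 1.14 and 0.996 after heat shock. The call was kept under 10 other settings and lost under 5. Among the latter were exact zeros kept as values (limma adjusted p = 0.0508) and a test against a 1.5-fold change (limma adjusted p = 0.062).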

How the results depend on the processing

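With 2 arrays a treatment, calls moved more often than directions did. Over 15 ratios and differences of the 5 genes and 235 alternative values, 197 kept direction and side of the threshold, 18 gained a call, 19 lost one and 1 turned its direction, GLO1 for celastrol minus heat shock (0.33 without heat shock replicate 1 and −1.14 without replicate 2); causes were not tested. For the list genes called, 100 of 143 kept their call and 43 lost it. The settings are not independent. For celastrol ratios, leaving out either heat shock array equals fitting celastrol alone. For heat shock ratios, leaving out either celastrol array equals fitting heat shock alone. Without either celastrol array every call was lost and every uncalled ratio kept its side. These counts are therefore no measure of stability. Leaving out 1 array each, the count of the 5 genes called ranged from 0 to 3 after celastrol, 0 to 5 after heat shock and 0 to 2 for the difference, and of all genes from 0 to 1522, 0 to 1582 and 0 to 575 (353, 490 and 60 as reported). The counts of 0 by limma came without either celastrol array, with 926 and 411 genes at an unadjusted p under 0.05 after celastrol, 1154 after heat shock and 378 and 343 for the difference. With each treatment fitted alone, 1522 genes were called after celastrol and 0 after heat shock (1154 unadjusted), where 0 of the 5 were called. Quantile normalization called 1135, 989 and 164 genes, and 1 of the 5 (GRE3) for the difference. The same spread for all genes called 955, 1097 and 253, and again 1 of the 5 (GRE3) for the difference. Array weights called 1243 after celastrol and 216 after heat shock. A test against a 1.5-fold change called 60, 69 and 31. Of the 5 it called 1 (HSP31) after celastrol and 2 (HSP31 and GRE3) after heat shock. With the number in the titles as a replicate block, 65, 30 and 0 genes were called (524 unadjusted for the difference). Of the 5, this block called 1 (HSP31) after celastrol and 2 (HSP31 and GRE3) after heat shock. The numbers in the titles are not stated to pair arrays, and deviations of same-numbered arrays correlated at −0.31 across genes. The crossed pairing, chosen after seeing the data, called 798, 849 and 50 genes.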

Other observations

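The nearest protein-coding genes on the chromosome, looked up after the values of the 5 genes were seen, are given as values only. TRM12, for a tRNA modification enzyme, and YML003W lie on either side of GLO1 on chromosome XIII. TRM12 had −1.19 and −2.78 after celastrol and −3.07 and −0.63 after heat shock, and YML003W had −0.98 and −2.28 after celastrol and −2.51 and −0.13 after heat shock, against values of GLO1 above 0 on every array. None of these means was called (limma adjusted p from 0.12 to 0.215).

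CUE5, for a ubiquitin-binding protein, is the next protein-coding gene after GLO4 on chromosome XV and had 0.63 and 0.70 after celastrol and 2.50 and 0.51 after heat shock. CKB2, on the other side of GLO4, had −0.01 and −0.51 after celastrol and 1.26 and −0.14 after heat shock. CCC2, for a copper transporter, and DON1 flank GLO2 on chromosome IV, with means of 0.31 and 0.15 after celastrol and 0.53 and 0.33 after heat shock. KRE28 and FIT1 beside HSP31, and SBE22 and YPT35 beside GRE3, had 1 value above 0.2 among their 16, that of KRE28 on heat shock replicate 1 (0.94). No neighbour was called after either treatment by limma. Over all genes tested, 3.85% rose and 2.68% fell after celastrol, and 4.28% rose and 4.79% fell after heat shock. For so few genes, a lack of calls is near those shares.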
